A study of Capra hircus with 6 samples.

Results

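Antisense circular RNAs are circles placed on the strand opposite to the gene they are named after. Every circRNA of the deposited table whose category is antisense was taken, which gave 235 of 3503 circRNAs, or 6.71%, named after 213 partner genes. They were counted in fibroblasts of fetal goats (Capra hircus), whose fetal age is given as 50 days. Treated cells grew for 10 weeks with 0.5 µg/mL of GO-AgNP, graphene oxide carrying silver nanoparticles, and control cells grew with 0 µg/mL. Each group had 3 libraries, prepared from total RNA without its ribosomal RNA by a kit that keeps the strand. Whether the libraries of one group stem from separate cultures is not stated, so p-values measure the spread between these libraries, which may be technical.

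A circular RNA forms when a splice donor is joined to an acceptor upstream of it, so that the RNA has no free end and resists exonucleases. The read that crosses this joint, the back-splice junction read, is what a circRNA caller counts. Most known circRNAs come from exons of protein-coding genes, in the direction of the gene. A circRNA on the other strand needs a transcript of that strand, and antisense transcripts are known to affect the gene they face through its chromatin, its splicing or the stability of its RNA.

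The circRNA table held 1289 to 1586 junction reads in a treated library and 4807 to 6944 in a control library. The gene table held 155452 to 218493 and 203786 to 245958 reads. Of the 11 fibroblast markers checked, 10 were in the gene table. Their summed level was 18693 to 22958 CPM in treated and 11595 to 13328 CPM in control libraries, carried by COL1A1 and COL1A2. PDGFRA stood the other way, at 60.6 against 114 CPM (edgeR adjusted p = 0.0813), as did FN1 and PDGFRB. Of the epithelial markers 2 of 5 were listed, KRT8 and KRT19, at a sum of 84.2 to 153 CPM in treated libraries and 0 in control libraries. The 1 nerve marker listed, SOX10, had 1, 10 and 5 treated reads and 0 in each control. The 1 endothelial marker listed, CDH5, had 0, 0 and 4 treated and 9, 11 and 6 control reads. Of the immune markers 2 of 4 were listed, at 0 to 57.3 CPM in treated and 7.90 to 40.3 CPM in control libraries, and the 1 muscle marker listed, DES, was at 0 in treated and 3.36 to 18.3 CPM in control libraries. The part of such cells in the results was not tested. In RNA of a whole culture, fewer cells of a type and less RNA per cell cannot be told apart.

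The strand of each circRNA was set against that of its gene where the tables allowed it. A sense circRNA of the same gene was listed for 81 antisense circRNAs, and all 81 lay on the strand opposite to it. The lncRNA table gave the strand of the gene for 6 antisense circRNAs, and all 6 lay opposite to it. These counts check the deposited labels against each other and are no separate evidence for transcripts of that strand. No antisense circRNA had the same start and end as another circRNA, and 30 overlapped a circRNA of their own gene on the other strand. On the plus strand lay 125 and on the minus strand 110.

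Antisense circRNAs held a larger share of the junction reads in treated cells. They took 8.99%, 10.5% and 8.64% of the junction reads in treated replicates 1 to 3 and 4.52%, 3.97% and 4.99% in control replicates 1 to 3. The groups did not overlap, and the exact 95% intervals of a treated and a control library closest to each other ran from 7.30% to 10.1% and from 4.39% to 5.65%. These intervals cover counting error only, since reads copied from 1 fragment are not independent. The mean was 9.37% ± 0.973 in treated libraries and 4.50% ± 0.509 in controls (SD, n = 3 each), a ratio of 2.08. For this difference p was 0.1 by an exact two-sided permutation test, the lowest value that 3 against 3 libraries can reach, and 0.125 adjusted over the 5 circRNA categories.

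The larger share went with a smaller difference in reads. Antisense junction reads numbered 127, 135 and 137 in treated and 253, 276 and 240 in control libraries, a ratio of means of 0.519. All other circRNAs together had 1296 ± 147.8 reads in treated libraries and 5526 ± 1062 in controls (SD, n = 3 each), a ratio of 0.235. By category the ratio was 0.186 for intergenic, 0.225 for exonic, 0.297 for sense overlapping and 0.330 for intronic circRNAs, so that the antisense ratio was the highest of the 5. Total sequencing depth is not known here, and the gene table was used as a second scale. Per 100000 scaled gene reads there were 82.3, 96.6 and 87.4 antisense junction reads in treated and 99.9, 92.7 and 109.8 in control libraries. On this scale the groups overlapped (ratio 0.881; exact two-sided permutation test p = 0.2). The other circRNAs stood at 861.1 ± 55.2 and 2146 ± 81.0 (SD, n = 3 each), a ratio of 0.401, without overlap (exact two-sided permutation test p = 0.1).

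**Figure D1:**
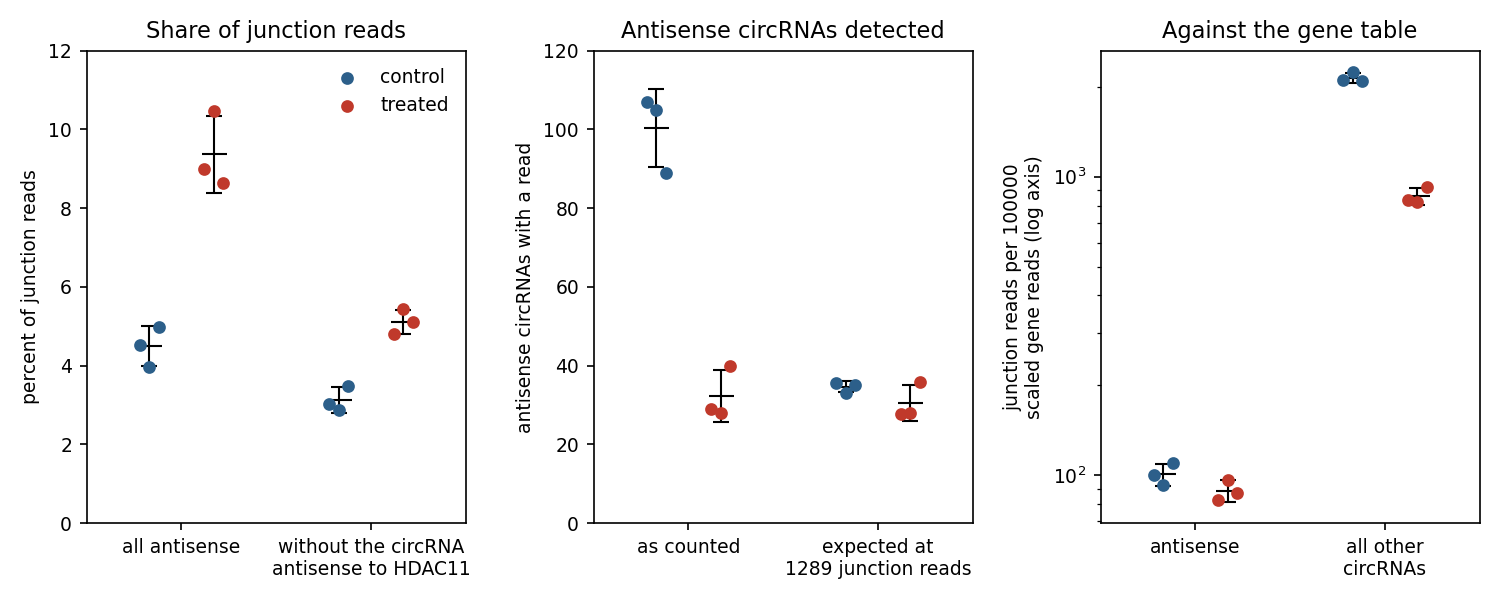
Antisense circRNAs in 3 control (blue) and 3 treated (red) libraries, with the mean and SD in black. The left panel gives their percent of junction reads, the middle panel the number with a read, and the right panel junction reads per 100000 scaled gene reads on a log axis. Treated libraries lie above controls in the left panel, and the groups overlap for the number expected at 1289 reads and for antisense reads against the gene table.

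One circRNA, antisense to HDAC11, made up 45.2% ± 3.81 of the antisense reads of a treated and 30.4% ± 2.67 of a control library (SD, n = 3 each). Without its reads in the antisense sum, the share was 5.12% ± 0.307 in treated libraries and 3.13% ± 0.328 in controls (SD, n = 3 each), a ratio of 1.64 and still without overlap (exact two-sided permutation test p = 0.1). Against the gene table, the remaining antisense reads stood at 48.6 ± 4.03 per 100000 in treated libraries and 70.1 ± 5.83 in controls (SD, n = 3 each), lower in treated cells without overlap, with a ratio of 0.693. The strand of these remaining reads also differed. The plus strand held 39.9% ± 6.20 of them in treated libraries and 52.9% ± 4.37 in controls (SD, n = 3 each; p = 0.1, exact two-sided permutation test).

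The number of different antisense circRNAs was lower in treated cells as counted. At least 1 junction read was found for 29, 28 and 40 of them in treated and for 107, 105 and 89 in control libraries, a ratio of means of 0.322 (exact two-sided permutation test p = 0.1). Most of this gap was not seen at equal depth. At 1289 junction reads, the total of the shallowest library, the expected numbers were 27.6, 28.0 and 35.8 in treated and 35.7, 33.1 and 35.1 in control libraries. These ranges overlapped (ratio 0.880; exact two-sided permutation test p = 0.4). Among the circRNAs expected at that depth, antisense ones were 6.33% ± 0.447 in treated libraries and 4.86% ± 0.239 in controls (SD, n = 3 each), without overlap (exact two-sided permutation test p = 0.1). As counted these percentages were 6.37% ± 0.489 and 5.69% ± 0.300, and they overlapped.

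Antisense circRNAs were short. Their median span on the genome was 240 nt, with quartiles of 170 and 986 nt, and 162 of 235 (68.9%) spanned less than 500 nt. Intergenic circRNAs, with a median of 233 nt, and intronic ones, with 205 nt, were of a similar size. Exonic circRNAs spanned 9427 nt at the median, with 3.64% under 500 nt, and sense overlapping ones 9314 nt. For every antisense circRNA the predicted length in the table equalled the whole span between its ends, as it did for every intergenic, intronic and sense overlapping circRNA, so the authors' prediction removed no intron in these 4 categories. Exonic circRNAs had a predicted length of 558 nt at the median, far below their span. The range of antisense lengths was wide, from 70 nt for the circRNA antisense to ZNF217 to 98787 nt for the one antisense to HDAC11, and 22 (9.36%) were over 10000 nt.

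The difference in length was tested within libraries. The median predicted length of the detected antisense circRNAs was 369, 228.5 and 217 nt in treated and 252, 252 and 270 nt in control libraries, against 646 to 695 nt and 585 to 638 nt for all other circRNAs. Antisense circRNAs were shorter in 6 of 6 libraries, by a mean of -1.29 ± 0.27 on the log2 scale (SD, n = 6; exact sign-flip permutation test p = 0.03125, the smallest that 6 libraries allow). With each junction read counted, in place of each circRNA, the difference turned to 1.11, with antisense ones shorter in 2 of 6 libraries (same exact test, p = 0.188). Against intronic circRNAs alone they were longer, by 0.31 in all 6 libraries (same exact test, p = 0.03125), and against intergenic ones the difference was 0.09 (p = 0.656). Their lengths did not differ between the groups beyond the spread, at 271.5 ± 84.6 nt in treated and 258.0 ± 10.4 nt in control libraries (SD, n = 3 each).

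**Figure D2:**
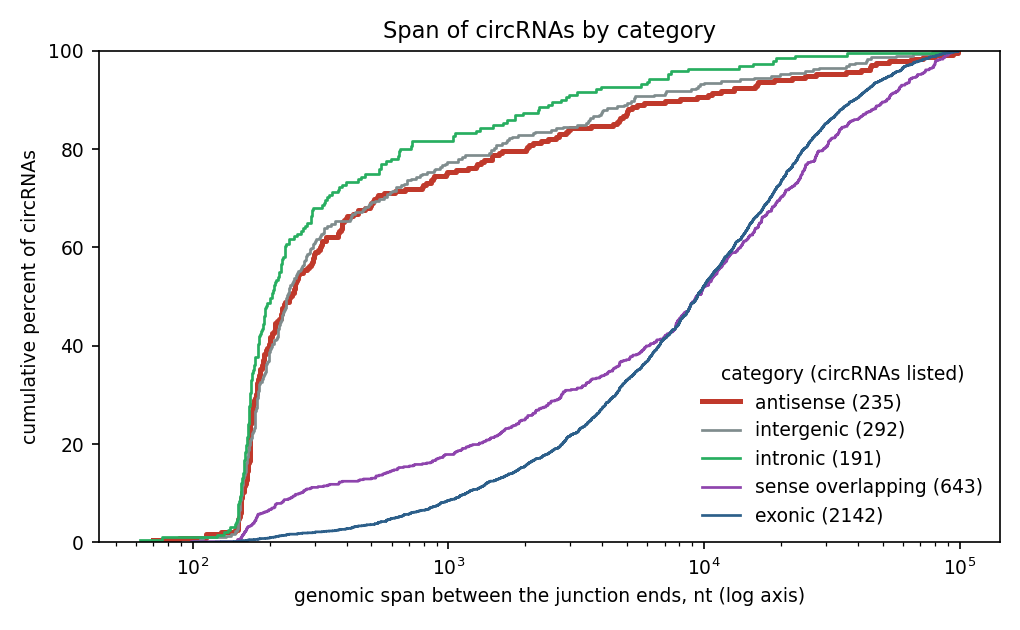
Cumulative percent of circRNAs (y axis) by genomic span between the junction ends in nt (x axis, log scale), one line per category with the number listed. The antisense line (thick, red) follows the intergenic and intronic lines, while exonic and sense overlapping circRNAs lie far to the right.

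The share of reads was also set out by span. Circles under 500 nt of every category took 16.0% ± 1.24 of junction reads in treated libraries and 10.1% ± 0.272 in controls (SD, n = 3 each), without overlap. Among the reads of these short circles, antisense ones were 24.1%, 27.2% and 23.9% in treated and 19.6%, 18.9% and 23.8% in control libraries. The groups did not overlap, but treated replicate 3 and control replicate 3 lay next to each other (ratio of means 1.21; exact two-sided permutation test p = 0.1). Among circles of 500 nt or more, which hold the one antisense to HDAC11, the antisense share was 6.36% ± 0.524 in treated libraries and 2.66% ± 0.311 in controls (SD, n = 3 each).

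Few antisense circRNAs were seen in both groups. A read in control libraries alone was found for 175, in treated libraries alone for 57, and in both for 3, those antisense to HDAC11, BRD9 and SFPQ. Of all 3503 circRNAs, 73.9% were seen in controls alone, 18.7% in treated libraries alone and 7.34% in both groups. Most antisense circRNAs had few reads. The median total over 6 libraries was 2 reads, 62 circRNAs had a single read, and 119 were seen in 1 library alone. All 3 control libraries shared 31 and all 3 treated libraries shared 12, and the circRNA antisense to HDAC11 was the only one with a read in all 6.

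The overlap of the groups was smaller than for other circRNAs, a comparison chosen after the counts were seen. Of the antisense circRNAs detected in a treated library, 10.3%, 7.14% and 7.50% also had a read in some control library, against 31.3%, 35.2% and 31.3% of the other circRNAs. For control libraries, 1.87%, 0.952% and 2.25% of antisense and 11.3%, 10.9% and 11.4% of other circRNAs also had a read in some treated library. Antisense circRNAs were below the others in 6 of 6 libraries, by a mean of -16.9 ± 8.40 percentage points (SD, n = 6; exact sign-flip permutation test p = 0.03125). The 6 values are not independent, since all count the same 3 shared antisense circRNAs against a pooled other group. The SD holds the gap between the groups, with means of 8.33% against 32.6% in treated and 1.69% against 11.2% in control libraries. So p does not measure a spread between independent libraries. Restricted to circRNAs with at least 2 reads in the library the difference was -16.4, and among those spanning under 500 nt it was -7.29 (both lower in 6 of 6, exact sign-flip permutation test p = 0.03125). Against intronic circRNAs it was -1.89, lower in 4 of 6 libraries (p = 0.438, same exact test). Among circRNAs with at least 5 treated reads, 2 of 14 antisense ones (14.3%) and 84 of 195 others (43.1%) had a control read.

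**Figure D3:**
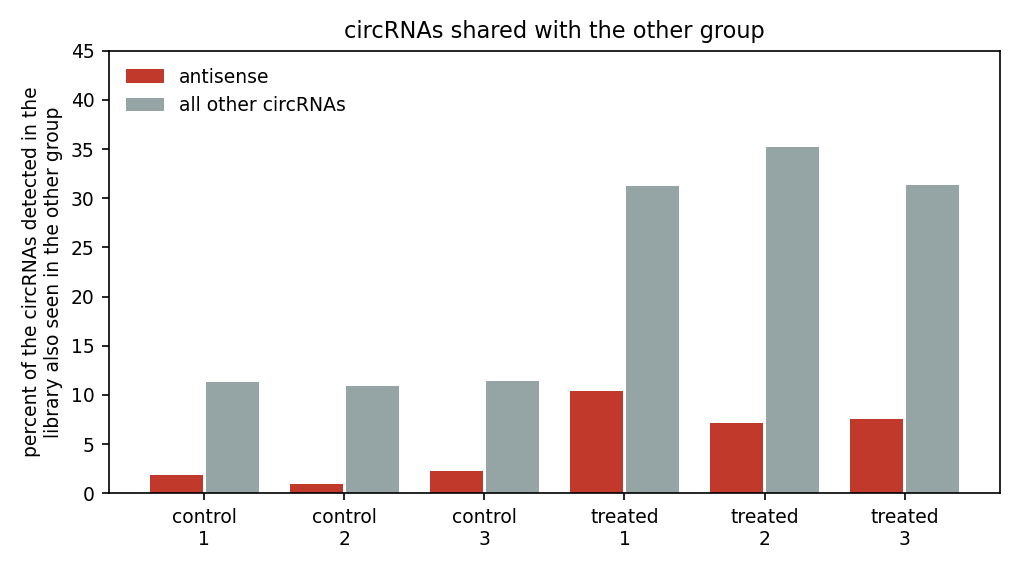
Percent of the circRNAs detected in each library that also had a read in the other group (y axis), for antisense circRNAs (red bars) and all others (grey bars), in 3 control and 3 treated libraries. The antisense bar is the lower one in all 6 libraries, at 0.952% to 10.3%.

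Junction ends were rarely shared. Another circRNA used 1 of the same ends for 679 exonic circRNAs (31.7%), 21.8% of sense overlapping, 13.0% of intergenic and 5.24% of intronic circRNAs. This was so for 2 antisense circRNAs (0.851%), both antisense to AHNAK and sharing an end with each other. Some genes also had a sense circRNA. Of the 61 such antisense circRNAs seen in controls alone, the gene's sense circRNAs were seen in controls alone for 31, in treated libraries alone for 10 and in both groups for 20. Of the 20 seen in treated libraries alone, they were seen in controls alone for 15, in treated libraries alone for 2 and in both for 3. Among all circRNAs 73.9% were seen in controls alone, and no difference between the strands is read from these counts.

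The circRNA antisense to HDAC11, the class IV histone deacetylase, was by far the most counted. It lies on chromosome 22 from 58305714 to 58404500 on the plus strand, in coordinates as deposited with no build named, and its 98787 nt make it the longest antisense circRNA. It had 59, 65 and 56 reads in treated and 84, 77 and 72 in control libraries. In these raw reads the treated libraries were the lower ones, but it took 4.18%, 5.04% and 3.53% of the treated against 1.50%, 1.11% and 1.50% of the control junction reads. It ranked between 2 and 4 among all circRNAs in every library, while the next antisense circRNA had at most 20 reads.

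On the scale of the circRNA table it rose. Of 22 circRNAs that passed the low-count filter, 10 (45.5%) were higher and 5 (22.7%) lower in treated cells past an adjusted p of 0.05, and this was the 1 antisense circRNA among the 22. Its log2 fold change was 1.11 ± 0.22 (SE; edgeR quasi-likelihood test, Benjamini-Hochberg adjusted p = 0.00453). The size depended on the scale. Scaled by the gene table it stood at 38.2, 46.5 and 35.7 reads per 100000 in treated and 33.2, 25.9 and 32.9 in control libraries, a ratio of 1.31 without overlap. With gene-table library sizes the edgeR log2 fold change was 0.40 (adjusted p = 0.0651), and with no filter on low counts it was 0.54 (adjusted p = 0.275), so the call was lost under both. Without treated replicate 2, 42 circRNAs passed the filter and 9 (21.4%) were higher, among them 2 of 2 antisense ones. Without treated replicate 3, 48 passed and 14 (29.2%) were higher, among them 3 of 3 antisense ones. The antisense ones added were newly let in by the filter, so their direction is no separate result. HDAC11 itself had no row in the gene table under this name. In the RefSeq gene order the next genes with a row, NUP210 and IQSEC1, lie on 1 side of it. NUP210 had 4 reads in control replicate 1 and none in the other libraries, and IQSEC1 had 3, 8 and 8 treated and 3, 0 and 2 control reads.

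**Figure D4:**
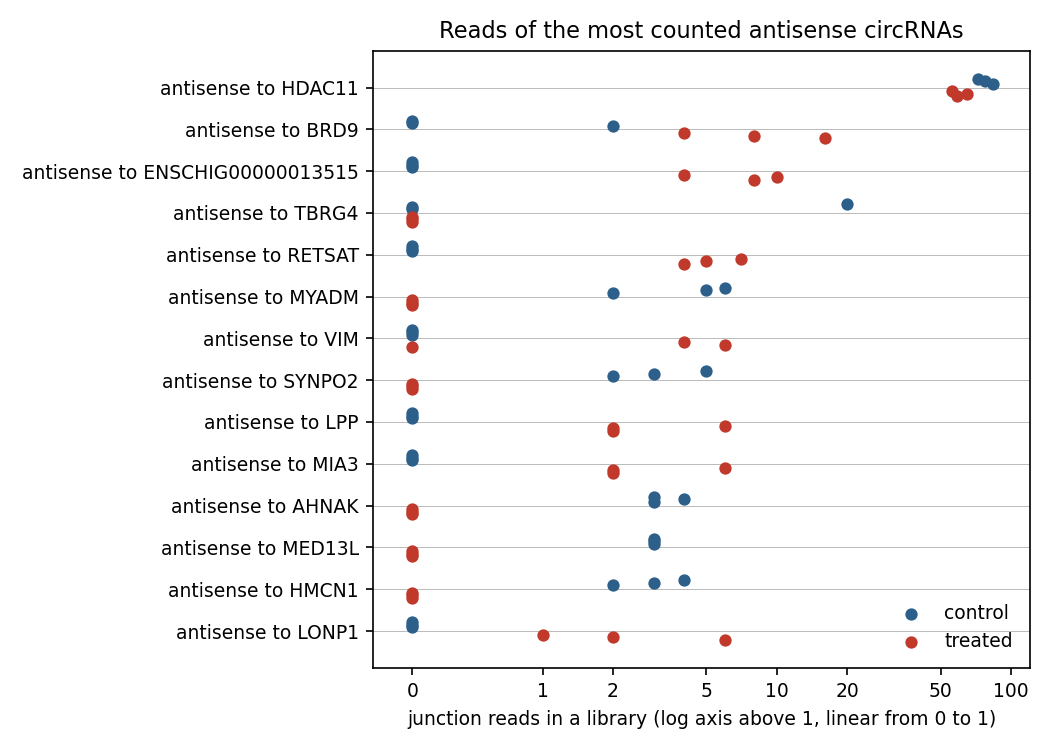
Junction reads in each library (x axis, log above 1 and linear from 0 to 1) of the 14 most counted antisense circRNAs, each named after its partner gene, in 3 control (blue) and 3 treated (red) libraries. Below the circRNA antisense to HDAC11, at 56 to 84 reads, all others but BRD9 have reads in 1 group and 0 in the other.

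Below HDAC11 the counts were small, and nearly every antisense circRNA with 9 or more reads was seen in 1 group. This was common in the whole table. Of circRNAs of all categories with at least 10 control reads, 190 of 281 had no treated read. Of those with at least 10 treated reads, 32 of 62 had no control read. The members seen in treated cells came from genes of several functions. The circRNA antisense to BRD9, a bromodomain subunit of a SWI/SNF chromatin remodelling complex, lies on chromosome 20 (71236689 to 71236983, minus strand, 295 nt). It had 16, 8 and 4 reads in treated and 2, 0 and 0 in control libraries. Every treated library lay above every control library. Scaled by the circRNA table, the ratio was 39.6 with an exact 95% counting interval of 9.98 to 343, and by the gene table it was 23.9.

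Chromosome 25 carried the circRNA antisense to ENSCHIG00000013515, a gene without a symbol in the tables. It (26123127 to 26123621, plus strand, 495 nt), had 8, 10 and 4 reads in treated libraries and 0 in each control. Against a floor of 3 reads over the 3 control libraries it was at least 20.7-fold higher by the circRNA table and at least 12.5-fold by the gene table. RETSAT is the enzyme that saturates retinol, and its antisense circRNA (chromosome 11, 49179781 to 49180149, minus strand, 369 nt), had 4, 5 and 7 reads in treated libraries and 0 in each control. It was at least 15.1-fold higher by the circRNA table and 9.11-fold by the gene table. Both were seen in all 3 treated libraries.

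Vimentin, the intermediate filament protein of mesenchymal cells, is encoded by VIM. Its antisense circRNA (chromosome 13, 31011220 to 31011366, minus strand, 147 nt) had 0, 6 and 4 reads in treated libraries. LPP encodes a LIM protein of focal adhesions, and its antisense circRNA (chromosome 1, 78178666 to 78183704, plus strand, 5039 nt) had 2, 2 and 6 treated reads. MIA3, also called TANGO1, loads collagen into carriers at the endoplasmic reticulum, and its antisense circRNA (chromosome 16, 24616491 to 24619135, minus strand, 2645 nt) likewise had 2, 2 and 6 treated reads. Each of these 3 was without a control read and at least 9.43-fold higher by the circRNA table, or 5.69-fold by the gene table. LONP1 is a protease of the mitochondrial matrix, and its antisense circRNA (chromosome 7, 91915424 to 91915574, plus strand, 151 nt), had 6, 2 and 1 reads in treated libraries. With no control read, it was at least 8.48-fold higher, or 5.12-fold by the gene table. For VIM treated replicate 1 was at 0, like the controls, and the groups touched there.

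None of these treated circRNAs passed the minimum count of 10. With a minimum of 3, 76 circRNAs were tested, of which 16 (21.1%) were higher and 14 (18.4%) lower. The 4 antisense ones among them were all higher: besides HDAC11, those antisense to ENSCHIG00000013515 (log2 fold change 6.65; edgeR adjusted p = 0.00136), RETSAT (6.20; adjusted p = 0.000913) and BRD9 (4.70; adjusted p = 0.00380). These 3 passed the filter through the treated group, where they are high, so the direction is no separate result. Fitted values against a group at 0 depend on the prior count. With no filter 3503 circRNAs were tested and 24 (0.685%) were higher, among them the same 3, and 11 (0.314%) lower, none of them antisense.

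Apart from the one antisense to TBRG4, members seen in control cells alone reached lower counts, although control libraries held more junction reads. The circRNA antisense to MYADM, a membrane protein of the MARVEL family (chromosome 18, 63312816 to 63314439, minus strand, 1624 nt), had 2, 5 and 6 reads in controls alone. It was at least 1.53-fold lower by the circRNA table and at least 2.54-fold by the gene table. SYNPO2 encodes an actin-binding protein, and its antisense circRNA (chromosome 6, 6676433 to 6677050, plus strand, 618 nt), had 2, 3 and 5 control reads. With a floor of 3 reads these bounds stay small because the treated libraries hold fewer junction reads.

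AHNAK, a very large scaffold protein, had an antisense circRNA (chromosome 29, 41208947 to 41209099, plus strand, 153 nt) with 3, 4 and 3 control reads. MED13L belongs to the Mediator kinase module, and its antisense circRNA (chromosome 17, 12440138 to 12440427, plus strand, 290 nt), had 3, 3 and 3 control reads. The one antisense to HMCN1, the extracellular matrix protein hemicentin (chromosome 16, 65663078 to 65707791, minus strand, 44714 nt), had 2, 3 and 4. Each of these 3 was seen in every control library and in no treated one. By the circRNA table they were at least 1.18-, 1.06- and 1.06-fold lower. By unscaled junction totals these bounds were 0.824, 0.741 and 0.741, so on that scale the reads set no decrease. TBRG4 encodes a mitochondrial RNA-binding protein, and its antisense circRNA (chromosome 4, 43655142 to 43655254, plus strand, 113 nt), had 20 reads in control replicate 3 and 0 in the other 5 libraries, so it rests on 1 library.

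Counted over all members, 5 of 7 antisense circRNAs with at least 10 treated reads had no control read, against 32 of 62 of all categories. With at least 10 control reads, 4 of 5 antisense ones had no treated read, against 190 of 281 of all categories. At a minimum of 5 reads the antisense counts were 12 of 14 for treated and 31 of 32 for control reads. Those of all categories were 123 of 209 and 744 of 889. The circRNA antisense to SFPQ, a splicing factor, was the third seen in both groups, with 2, 0 and 1 treated reads and 0, 0 and 1 control reads. These were too few to compare.

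A few genes carried several antisense circRNAs. Of the 213 partner genes, 201 had 1 and 9 had 2, and AHNAK had 7, ENSCHIG00000027173 had 5 and MAP1A had 4. The 7 antisense to AHNAK lay within 41208947 to 41223306 on chromosome 29 and were 153 to 384 nt long. Together they had 0, 0 and 2 treated reads and 9, 12 and 4 control reads, without overlap in these raw reads. As a part of junction reads the groups overlapped. Treated replicate 3, at 2 of 1586 junction reads, lay above control replicate 3, at 4 of 4807. Their ratio was 0.226 by the circRNA table, with an exact 95% counting interval of 0.0260 to 0.907. This interval holds for that scale, set by the 22 circRNAs tested, and none was computed on other scales. In the edgeR fit by gene with a minimum count of 3 their sum was not past the threshold (log2 fold change -2.35; adjusted p = 0.0880).

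MAP1A encodes a microtubule-associated protein, and its 4 antisense circRNAs (chromosome 21, 54778366 to 54786908, minus strand) had 3, 8 and 2 reads in controls alone. They were at least 1.53-fold lower by the circRNA table. In the edgeR fit by gene with no filter their sum was not past the threshold (log2 fold change -4.77; adjusted p = 0.0817). The 5 antisense to ENSCHIG00000027173 overlapped one another in 4 pairs within 26982730 to 26983528 on chromosome 19, so reads of 1 source may be divided among them. They had 1, 1 and 3 treated and 0, 6 and 2 control reads, and the groups overlapped. The genes with a pair of antisense circRNAs included the matrix genes COL1A1, COL11A1, FN1, SPARC and VCAN. Those of FN1 had 2, 4 and 2 control reads and no treated read.

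Reads summed by partner gene gave the same single call at the minimum count of 10. Of 25 sums of a gene and category tested, 10 (40.0%) were higher and 8 (32%) lower, and HDAC11 was the 1 antisense sum (log2 fold change 0.86 ± 0.26 SE; edgeR adjusted p = 0.00406). Without treated replicate 1 the 1 antisense sum tested was not called, beside 8 of 63 sums (12.7%) higher. Without treated replicate 3, 3 of 3 antisense sums were higher, beside 15 of 66 sums (22.7%). The antisense sums added there were newly let in by the filter, so their direction is no separate result. With a minimum of 3, 141 sums were tested, with 13.5% higher and 22.0% lower, and 4 of 5 antisense sums were higher and none lower. Those of BRD9, ENSCHIG00000013515 and RETSAT passed the filter through the treated group, so their direction is again no separate result. With no filter, 1.51% of 2644 sums were higher and 3.74% lower. The antisense sums called were then 7 higher, for BRD9, ENSCHIG00000013515, LONP1, LPP, MIA3, RETSAT and VIM, and 1 lower, for TBRG4, which rests on control replicate 3 (edgeR adjusted p = 0.0124).

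The partner genes were compared in the gene table next. The counter's strand setting is not given in the sources used here, so reads of a gene and of an RNA on its other strand cannot be told apart in these values, and a gene's reads may not be its mRNA level. Of the 213 partner names 181 were in the gene table. Their median of 26 control reads over 3 libraries was above that of all 11374 genes, 7 reads, and of the 1625 host genes of sense circRNAs, 9 reads. Partner genes were 10 of the 100 genes with the most control reads, and 1.59% of all genes. They included RETSAT with 8390 control reads, the collagen genes COL1A1, COL1A2, COL11A1 and COL5A2, and FN1, AHNAK and THBS1. Of the partner genes 81 (44.8%) passed the low-count filter, against 18.9% of all genes.

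Of the 81 tested, 37 were higher, 14 were lower and 30 did not pass the threshold (edgeR, adjusted p under 0.05), with a median log2 fold change of 0.68. Over all 2148 genes tested 24.9% were higher and 26.7% lower, with a median of -0.02, and over 365 host genes of sense circRNAs 33.2% were higher and 18.9% lower, with a median of 0.35. The balance depended on the scaling. With no scaling factor the median of all genes was -0.47 and that of the partner genes 0.17. Then 21 of the 81 partner genes were higher and 23 lower, beside 15.2% and 35.8% of all 2148 genes. With no filter on low counts 8.27% of 11374 genes were higher and 10.2% lower, and of the 181 partner genes 29 were higher and 21 lower.

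Partner genes were also counted by where their antisense circRNA was seen. With the circRNA in control libraries alone, 24 of 53 tested partner genes were higher and 9 lower, with a median of 0.61. With the circRNA in treated libraries alone, 8 of 21 were higher and 5 lower, with a median of 0.46. For the 7 tested genes with antisense reads in both groups, 5 were higher and none lower, with a median of 1.09. No test of these medians was made.

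**Figure D5:**
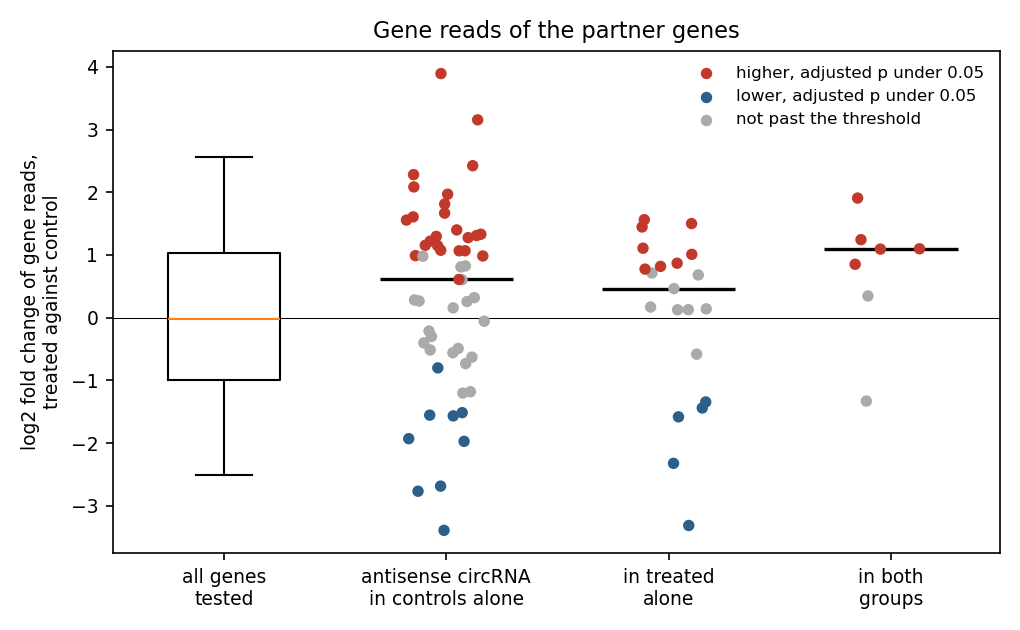
Log2 fold change of gene reads, treated against control (y axis), for all 2148 genes tested (box with quartiles and median, whiskers from the 5th to the 95th percentile) and for 81 partner genes by where their antisense circRNA was seen. Each point is a gene, coloured by its edgeR call, and black lines are medians, at 0.61, 0.46 and 1.09. Higher and lower genes occur with the circRNA in controls alone and in treated libraries alone.

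For the named members, gene and circRNA moved alike in some cases and apart in others. RETSAT had 517, 449 and 682 gene reads in treated and 2669, 3289 and 2432 in control libraries. Its gene reads fell, with a log2 fold change of -1.58 ± 0.15 (SE; edgeR adjusted p = 6.58e-08), while its antisense circRNA was seen in treated libraries alone. VIM had 281, 185 and 180 gene reads in treated and 194, 191 and 159 in control libraries. On the TMM scale these rose, with a log2 fold change of 1.01 ± 0.18 (SE; edgeR adjusted p = 7.84e-05), but with no scaling factor the call was lost (0.52; adjusted p = 0.0536). ENSCHIG00000013515 rose too, with 94, 88 and 71 against 68, 72 and 60 gene reads (log2 fold change 1.11 ± 0.21 SE; edgeR adjusted p = 0.000179), and its antisense circRNA was likewise seen in treated libraries alone.

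Among genes with antisense circRNAs in the controls, HMCN1 fell, with 1, 2 and 0 treated and 29, 15 and 14 control gene reads (log2 fold change -3.39 ± 0.81 SE; edgeR adjusted p = 0.00139). Gene and circRNA were both at their lowest in treated libraries there. AHNAK rose, with 756, 537 and 564 against 602, 627 and 516 gene reads (0.85 ± 0.15 SE; edgeR adjusted p = 5.26e-05), while its antisense circRNAs had fewer raw reads in treated libraries. Without a scaling factor this call was lost (0.38; adjusted p = 0.138). MAP1A had a log2 fold change of 1.07 ± 0.26 (SE; edgeR adjusted p = 0.00145), lost without a scaling factor (0.59; adjusted p = 0.0809). That of LONP1 was 0.77 ± 0.24 (SE; edgeR adjusted p = 0.0110), lost without a scaling factor (0.31; adjusted p = 0.376), with no filter (0.50; adjusted p = 0.211), without control replicate 1 (0.63; adjusted p = 0.0878) and without control replicate 3 (0.67; adjusted p = 0.0557). MIA3 did not pass (-0.58; edgeR adjusted p = 0.191), except with no scaling factor (-1.02; adjusted p = 0.0388). Gene reads of BRD9, LPP, MYADM, SYNPO2 and TBRG4 were too few to be tested. BRD9 had 0, 1 and 1 treated and 5, 1 and 4 control gene reads.

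Other partner genes were chosen after their values were seen. C9orf16 rose most among the partner genes tested, by 3.89 ± 0.76 on the log2 scale (SE; edgeR adjusted p = 0.000232), with 3 antisense reads in control replicate 2. GANAB, a glucosidase subunit of the endoplasmic reticulum, rose by 3.16 ± 0.51 on the log2 scale (SE; edgeR adjusted p = 2.67e-05), with 1, 1 and 0 reads of its antisense circRNA in the controls. LOXL2, a collagen cross-linking enzyme, rose by 2.28 ± 0.27 (SE; edgeR adjusted p = 8.77e-07), with 1, 2 and 1 antisense reads in the controls. COL6A2, a chain of type VI collagen, rose by 1.97 ± 0.15 (SE; edgeR adjusted p = 5.86e-09). HNMT, which methylates histamine, fell by 3.32 ± 0.55 (SE; edgeR adjusted p = 4.05e-05), with 2 antisense reads in treated replicate 3. CNOT1, the scaffold of the CCR4-NOT deadenylase, fell by 2.32 ± 0.29 (SE; edgeR adjusted p = 1.26e-06), with 1 antisense read in treated replicate 1.

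Genes that act on circRNAs were read from a list. Of 18 genes with a part in circRNA formation, 13 were in the gene table and 5 were tested, with 3 higher and none lower, beside 24.9% and 26.7% of all genes tested. KHSRP, an RNA-binding protein, had a log2 fold change of 1.37 ± 0.55 (SE; edgeR adjusted p = 0.0417) and SFPQ one of 1.10 ± 0.39 (SE; edgeR adjusted p = 0.0233). ADAR, the RNA editing enzyme, stood at -0.40 and HNRNPM at 0.55, neither past the threshold. Of 11 genes of circRNA decay and export, 9 were in the table and DIS3, an exosome nuclease, was the 1 tested, with 1, 0 and 1 treated and 32, 36 and 36 control reads, a log2 fold change of -4.77 ± 0.69 (SE; edgeR adjusted p = 8.31e-06).

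Of 18 histone deacetylases, the family of HDAC11, 15 were in the table and 6 were tested, of which 3 were higher and 2 lower, beside 24.9% and 26.7% of all genes tested. On the TMM scale HDAC5 (1.99 ± 0.53 SE; edgeR adjusted p = 0.00334), HDAC1 (0.69 ± 0.17 SE; edgeR adjusted p = 0.00218) and SIRT4 (0.36 ± 0.14 SE; edgeR adjusted p = 0.0361) rose. In raw reads HDAC1 had 128, 104 and 135 treated and 126, 143 and 116 control reads. SIRT4 had 1430, 1215 and 1200 treated and 1667, 2060 and 1410 control reads. With no scaling factor the median of all genes tested moved from -0.02 to -0.47, and no values of the deacetylases on that scale are given here. HDAC10 (-1.06 ± 0.36 SE; edgeR adjusted p = 0.0165) and SIRT1 (-1.15 ± 0.47 SE; edgeR adjusted p = 0.0440) fell, and HDAC7 did not pass. The median of the 6 was 0.07, against -0.02 over all genes tested.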

How the data were processed

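Total RNA depleted of ribosomal RNA was made into stranded libraries, 3 per group, per the labels' protocols. The authors deposited raw counts, per the file headers: junction reads of 3503 circRNAs and reads of 11374 genes and 431 lncRNA transcripts. The circRNA table also gives a category, a gene and the authors' predicted length, another deposited value used as given. Normalized per-library columns, 18 in all, were left aside. BWA, CASAVA 1.8 and hg19, a human build, appear in the submitters' processing notes. Which caller, counter, strand setting and annotation were used is not given in the sources used here, so coordinates are as deposited, with starts counted from 1.

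Counts were tested with edgeR 4.0.16 in R 4.3.3 on whole tables (TMM, filterByExpr with a minimum count of 10, quasi-likelihood test, Benjamini-Hochberg threshold 0.05). CPM and per 100000 values use TMM-scaled gene totals. Folds by the circRNA table use TMM-scaled junction totals, with factors set by the 22 circRNAs tested, which hold 27.6% of junction reads. By unscaled junction totals the circRNA antisense to HDAC11 was 3.13-fold higher, in place of 2.18-fold. That antisense to MYADM was then at least 1.07-fold lower, in place of 1.53-fold. For a bound, a group without reads was taken at a floor of 3 in total. Intervals are exact at 95%. Detection at 1289 reads is the hypergeometric expectation. Permutation tests over libraries enumerated all 20 assignments. Other steps ran in Python 3.11.15 with pandas 2.3.3 and scipy 1.17.1, and scripts were tested on simulated data.

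Members and lists were chosen with earlier results of these data known. Antisense circRNAs were named if tested, among the 8 most counted, seen in 6 libraries, among the 6 most counted of 1 group alone, among the 5 longest or shortest with at least 10 reads, or of genes with 3 or more. Ties went by position. Some that this rule takes are given by count. One member of a gene list is not reported here, and the counts include it. Alternatives were DESeq2 1.42.0 (size factors or test), other filters and scalings, a block for the replicate number, and fits without each library in turn. Comparisons by span, by sharing between groups and with single categories were added after the data were seen.

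Whether replicate numbers pair the libraries was read from the deviations of same-numbered libraries from their group means. For numbers 1 to 3 these correlated at -0.017, -0.013 and -0.034 over the genes tested and at 0.381, -0.119 and 0.194 over the circRNAs tested, so the numbers were not taken as pairs there. Over the 25 sums by gene and category all 3 were above 0.1, at 0.491, 0.187 and 0.363. No test of pairing was made.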

Additional observations from a re-analysis of the deposited data

How the results depend on the processing

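The share of junction reads kept its direction under every alternative run, at a difference of 1.99 to 5.24 points. The lowest value left the circRNA antisense to HDAC11 out of the antisense sum alone. Left out of the total as well, the difference was 2.18. The number detected and the summed reads stayed lower in treated cells under theirs, but not always apart. At equal depth the numbers detected overlapped between groups (ratio 0.880; exact two-sided permutation test p = 0.4). Against gene reads the summed reads overlapped as well (ratio 0.881; exact two-sided permutation test p = 0.2). Of the antisense circRNAs, 1 was called higher with a minimum count of 10, 3 with no filter, 4 with a minimum count of 3, none with gene-table library sizes, and 1 to 3 when 1 library was left out (2 without treated replicate 2, 3 without treated replicate 3). Of all circRNAs tested, 45.5%, 0.685%, 21.1% and 18.8% were higher in the first 4 of these fits, and 21.4% to 54.5% with 1 library left out. No antisense circRNA was called lower. Each fit with a filter tested only 1 to 4 of them, so few could be called lower. With no filter 0.314% of all circRNAs were lower. By partner gene these counts were 1, 7, 4 and 0, and 0 (without treated replicate 1) to 3 (without treated replicate 3) when 1 library was left out, with 1 lower under no filter. With the replicate block 1 antisense circRNA was called, that of HDAC11, at a log2 fold change of 1.11 (edgeR adjusted p = 0.00214). For sums by gene, where the numbers paired the libraries, the block again gave 1 antisense sum higher and none lower. Of the 81 partner genes tested the block called 36 higher and 14 lower, in place of 37 and 14, beside 23.1% and 25.3% of all genes. With no scaling factor 21 partner genes were higher and 23 lower, beside 15.2% and 35.8% of all genes, and the cause was not tested. The length difference turned to 1.11 when each junction read was counted (cause not tested), to 0.31 against intronic and to 0.092 against intergenic circRNAs. It ran from -1.37 to -1.22 when 1 library was left out, where 5 libraries allow no p under 0.0625. The difference in the percent also seen in the other group was -1.89 against intronic circRNAs and ran from -18.4 to -14.6 when 1 library was left out. At 1289 to 1586 junction reads a treated library can miss circRNAs that controls show, so a count of 0 there allows up to 0.189% to 0.233% of its junction reads.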

Other observations

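Antisense transcripts of the partner genes were also present among the long noncoding RNAs. The lncRNA table lists 10 intronic antisense transcripts for 5 partner genes, DIP2C, LOXL2, ROR1, SBF2 and ENSCHIG00000025880. Their raw reads were not tested, and a few other transcripts take most reads of that table in treated libraries, so no scaled value is given. The DIP2C transcript ENSCHIT00000002852 had 18, 40 and 34 treated and 126, 137 and 73 control reads. The ROR1 transcript ENSCHIT00000011426 had 10, 13 and 17 against 45, 25 and 29. The SBF2 transcript ENSCHIT00000002538 had none against 22, 27 and 10. The antisense circRNAs of DIP2C and ROR1 were seen in treated libraries, with 1 read and 2 reads, and that of SBF2 in controls, with 3 reads.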
